A study of Rattus norvegicus with 97 samples.

Results

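The opioid peptides and their receptors were followed in the nucleus accumbens shell of rats, the ventral striatal region best known for its role in reward. The genes are the 4 peptide precursors Penk, Pdyn, Pnoc and Pomc and the 4 receptors Oprk1, Oprm1, Oprd1 and Oprl1. Every probe set that carries 1 of these 8 symbols in the platform annotation was taken, which gave 14 of 31042 probe sets (8 of 14217 genes with a symbol). Oprk1 and Oprl1 have 3 probe sets each, Oprm1 and Pdyn have 2 each, and Penk, Pnoc, Pomc and Oprd1 have 1 each. Probe sets of 1 gene read the same transcript pool and are not independent of each other.

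The study measured 97 Affymetrix rat arrays, 1 per animal, from 5 pairs of selectively bred rat lines. In each pair a line bred for alcohol preference (P, HAD1, HAD2, AA or sP) stands against a line bred for non-preference (NP, LAD1, LAD2, ANA or sNP). There were 10 animals per line, except for LAD1, sP and sNP with 9 each. The labels give neither sex, age nor alcohol exposure, so what the animals received before dissection is not known here, and each line pair is a selection history of its own. Values are log2 RMA signals (RMA is a summary of background-corrected, quantile-normalised probe intensities), and a difference is preferring minus non-preferring on that log2 scale, where 1 unit is a factor of 2. The comparisons ask which of these genes differ between lines bred for opposite alcohol preference, and whether they do so alike in the 5 pairs.

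Opioid peptides are cut from large precursor proteins and act on receptors that couple to inhibitory G proteins, which lower cyclic AMP and neuronal excitability. Enkephalins from Penk act mainly at the delta and mu receptors (Oprd1, Oprm1), dynorphins from Pdyn at the kappa receptor (Oprk1), nociceptin from Pnoc at the nociceptin receptor (Oprl1), and beta-endorphin from Pomc at the mu receptor. In the accumbens, most neurons are GABAergic spiny projection neurons. Those that carry the D2 dopamine receptor are known for Penk and those that carry the D1 receptor for Pdyn, whereas beta-endorphin reaches the region mainly in axons of hypothalamic neurons. Mu receptor activation there is known to raise the intake of palatable food, and kappa receptor activation to lower dopamine release.

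Of the 8 genes, 4 had an entry in the RefSeq promoter table (Oprm1, Oprd1, Pdyn and Pomc). The sequence before Pdyn is shown because Pdyn is the only one of these 4 genes with a called line difference. The 250 bases before its annotated start lie at chr3:137366504-137366753 on the minus strand of GRCr8. They are written 5′ to 3′ in the direction of transcription, and the capitals mark the letters TATAAA.
Pdyn: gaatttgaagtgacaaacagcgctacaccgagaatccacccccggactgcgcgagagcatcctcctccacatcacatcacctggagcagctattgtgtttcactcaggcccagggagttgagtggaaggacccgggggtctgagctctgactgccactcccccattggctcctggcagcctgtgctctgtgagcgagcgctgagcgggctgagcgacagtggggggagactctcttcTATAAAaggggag
TATAAA occurred on either strand in 12.9% of the 33469 windows of this length in the table. The letters TGACGTCA (the full cyclic AMP response element, in 1.59% of the windows), its part TGACG (18.2%) and TGANTCA (an AP-1 motif, 6.34%) were not found in this window on either strand.

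In all pairs but HAD2/LAD2, 8 arrays stood apart from their labels. A label score was taken over the 50 probe sets that best part the lines of a pair, with 0 for a typical non-preferring and 1 for a typical preferring animal. The 8 arrays lay more than 0.3 from the end their label names. These arrays are HAD1 28 (0.0188), LAD1 37 (0.982), P 9 (0.405), NP 9 (1.05), AA 19 (0.0580), ANA 20 (0.907), sP 4 (0.39) and sNP 4 (0.49). The arrays sP 4 and sNP 4 were each other's closest array, with r = 0.998 over all probe sets, and AA 19 and ANA 20 were closest to arrays of the sP/sNP pair. No array was relabelled, and results are given with and without these arrays where the outcome differs.

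The labelled tissue was checked against its defining cells. Of 18 listed spiny neuron markers 17 were measured, and their mean signal per array lay between 9.38 and 12.89. An index of spiny neuron signal was formed for each array, as the mean of these markers minus the mean of 6 measured markers of pallidum, septum and basal forebrain, the regions next to the accumbens. The opioid genes are not part of either list. The index ran from -0.46 to 5.41 in P and from 1.55 to 5.44 in NP, but only from 4.10 to 4.91 in HAD1 and from 4.36 to 5.16 in LAD1. Within P and NP, then, some arrays had far less spiny neuron signal than others. In these tissue samples, fewer cells of a type and less RNA per cell cannot be told apart.

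Penk and Pdyn, the precursors that mark the spiny projection neurons, were lower in sP than in sNP rats, and they are the only opioid genes called in any of the 5 pairs. In sP/sNP, 3 of the 14 probe sets were called (adjusted p under 0.05, limma with Benjamini-Hochberg over 31042 probe sets), and all 3 were lower in sP. Over all probe sets 12.9% were called in this pair, and 5.83% were called lower. At an unadjusted p under 0.05 there were 6 of the 14, against 30.3% of all. The median absolute difference was 0.15 for the 14 probe sets and 0.08 for all probe sets, so this pair differed widely, with the opioid probe sets above its middle.

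Penk, the enkephalin precursor, was at 14.26, 12.59, 14.27, 13.97, 12.46, 13.96, 13.85, 13.16 and 12.74 in sP rats 1 to 9. In sNP rats 1 to 9 it was at 14.32, 14.41, 14.49, 14.03, 14.42, 14.29, 14.19, 13.97 and 14.27. The sNP animals lay close together, whereas sP held 4 low animals (sP 2, 5, 8 and 9) and 5 near the sNP range, and 7 of the 9 sP animals lay below the lowest sNP animal. Penk averaged 13.47 ± 0.735 in sP and 14.26 ± 0.177 in sNP (SD, n = 9 each). The difference was -0.79 ± 0.230 (SE; 95% interval -1.27 to -0.31), a level 1.73-fold lower in sP (limma adjusted p = 0.0358).

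Pdyn, the dynorphin precursor, gave a similar difference on both of its probe sets. On probe set 1383294_at it was at 13.28, 11.66, 13.14, 13.02, 11.48, 13.12, 13.08, 12.23 and 11.94 in sP rats 1 to 9. In sNP rats 1 to 9 it was at 13.35, 13.53, 13.44, 13.07, 13.39, 13.12, 13.18, 12.80 and 13.50. The same 4 sP animals (2, 5, 8 and 9) were low and lay below every sNP animal, while the other 5 overlapped with sNP. The difference was -0.71 ± 0.231 (95% interval -1.20 to -0.23, limma adjusted p = 0.0476). On the second probe set, 1369882_at, Pdyn ran from 5.55 over a median of 6.74 to 7.12 in sP and from 6.71 over a median of 7.17 to 7.80 in sNP. That difference was -0.70 ± 0.198 (95% interval -1.11 to -0.29, limma adjusted p = 0.0334), and the groups overlapped there too.

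**Figure D1:**
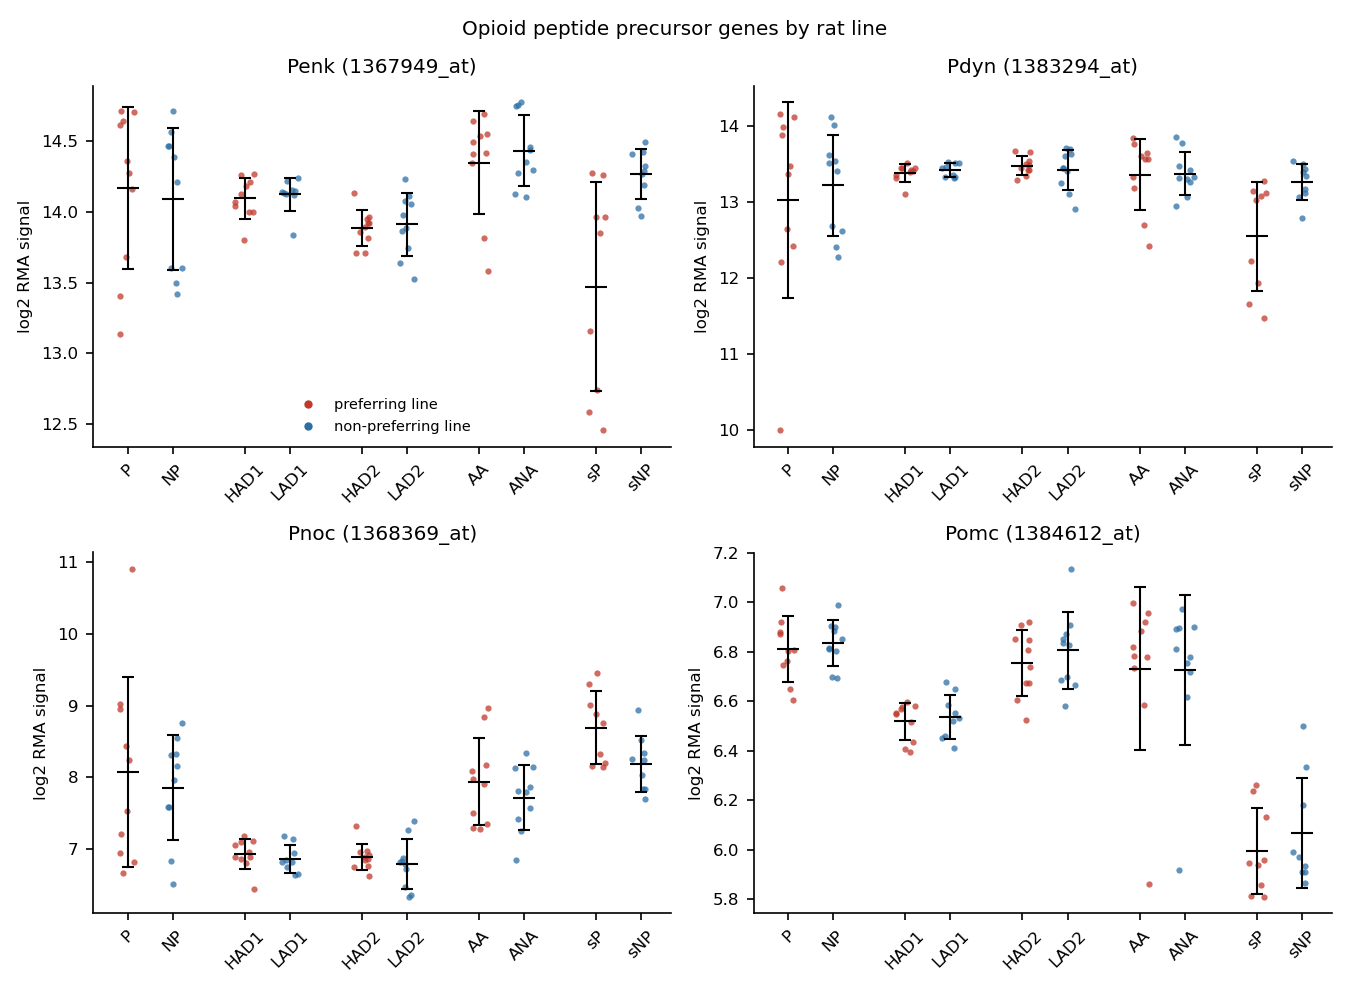
Log2 RMA signal of the 4 opioid peptide precursor genes (brightest probe set of each) in every animal, by line, with each preferring line left of its non-preferring line; bars give the mean and 1 SD. In sP, 4 of 9 animals lay between 12.46 and 13.16 for Penk and between 11.48 and 12.23 for Pdyn, and P animal 5 stood alone at 10.001 for Pdyn.

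Spiny neuron and neighbouring-region markers moved with these differences. Of the 17 measured spiny neuron markers 13 were called lower in sP and 0 higher, with a median difference of -0.93. Their mean per array lay between 10.11 and 12.09 in sP and between 11.41 and 12.35 in sNP. Drd1, the D1 dopamine receptor, differed by -0.94 and Drd2, the D2 dopamine receptor, by -0.996. Of the 6 measured markers of pallidum, septum and basal forebrain, 3 were called higher in sP, with a median difference of 0.57. Their mean lay between 8.48 and 9.55 in sP and between 7.56 and 9.13 in sNP. None of the 23 measured markers of both lists was at 0, since RMA signals have no zero.

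The low Penk and Pdyn values fell on the arrays with the lowest index. The index was 0.739, 0.681, 1.44 and 0.797 in sP 2, 5, 8 and 9, between 2.57 and 3.604 in the other 5 sP arrays, and between 2.42 and 4.72 in sNP. Its mean was 2.116 ± 1.206 in sP and 3.66 ± 0.834 in sNP (SD, n = 9 each; permutation p = 0.00742, and 0.0742 after adjustment over 10 tests of index and RNA measure). With the index as a covariate, none of the 14 probe sets was called in sP/sNP, and 315 of all probe sets were called in place of 4006. The Penk difference was then -0.07 and the Pdyn differences were 0.0090 on 1383294_at and -0.14 on 1369882_at (limma adjusted p = 0.999 each).

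The calls were close to the threshold, and leaving out single animals moved them. Penk was called in 9 of the 18 fits that each left out 1 animal, with differences between -0.89 and -0.67. It was not called without sP 2, 5, 8 or 9, or without sNP 1, 3, 5, 6 or 9, where its adjusted p lay between 0.0518 and 0.0745. The difference was then -0.75 to -0.67 without 1 of the 4 sP animals, and -0.79 to -0.76 without 1 of the 5 sNP animals. In these 9 fits 1031 to 2379 of all probe sets were called, in place of 4006. Pdyn 1369882_at lost its call without the same 9 animals (differences from -0.71 to -0.58, adjusted p between 0.0508 and 0.0715). Pdyn 1383294_at lost it without these 9 and also without sNP 2 or sNP 7 (differences from -0.73 to -0.58, adjusted p between 0.0620 and 0.0982). With the Gapdh 3′ minus 5′ measure of RNA integrity and labelling as a covariate, which averaged 0.403 in sP and 0.468 in sNP, the differences of Penk and of both Pdyn probe sets stayed between -0.74 and -0.65. Their adjusted p then lay between 0.0832 and 0.115. Leaving out sP 4 and sNP 4, which resembled each other more than their own lines, gave -0.88 for Penk, -0.80 for Pdyn 1383294_at and -0.76 for Pdyn 1369882_at, all 3 called.

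**Figure D2:**
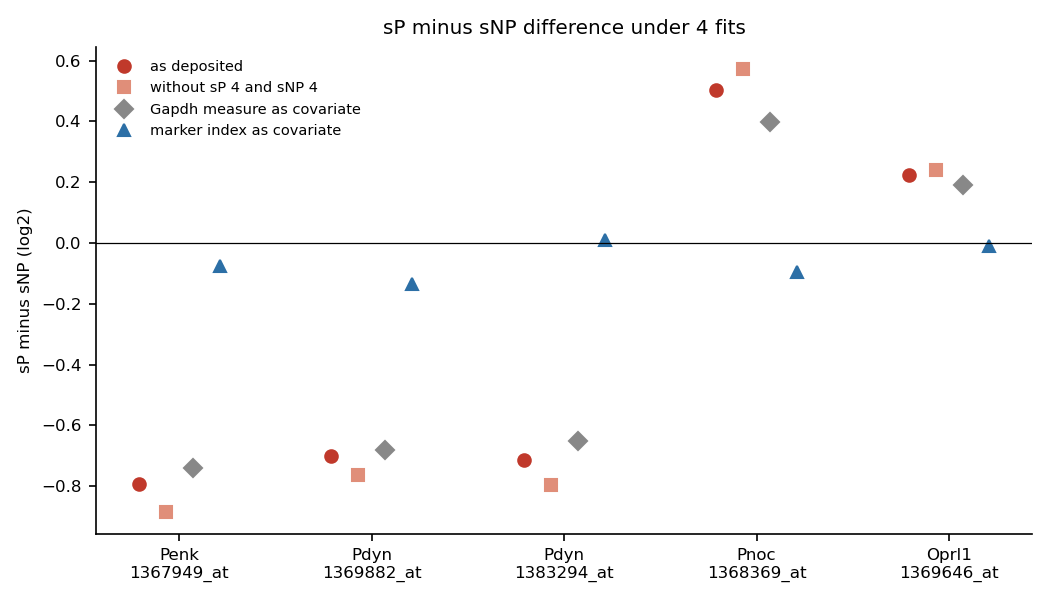
Difference between sP and sNP (log2) for 5 opioid probe sets under 4 fits: as deposited, without arrays sP 4 and sNP 4, with the Gapdh 3′ minus 5′ measure as a covariate, and with the marker index as a covariate. Penk was -0.79, -0.88, -0.74 and -0.07 in this order, so that the fit with the index lies apart from the other fits.

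The nociceptin genes Pnoc and Oprl1 lay on the opposite side, with no probe set called. Pnoc, the nociceptin precursor, ran from 8.14 over a median of 8.76 to 9.45 in sP and from 7.70 over a median of 8.24 to 8.94 in sNP. The 3 highest animals of this pair (sP 2, 8 and 9) were among the 4 that were low in Penk and Pdyn, and the groups otherwise overlapped. The Pnoc difference was 0.50 ± 0.195 (95% interval 0.10 to 0.91), which did not pass the test over all probe sets (limma adjusted p = 0.0881). Oprl1, the nociceptin receptor, ran from 8.77 over 9.07 to 9.39 in sP and from 8.72 over 8.87 to 9.18 in sNP on probe set 1369646_at. Its difference of 0.22 ± 0.0882 also did not pass (limma adjusted p = 0.0944), and 4 sP animals lay above the highest sNP animal. On 1369645_at and 1387661_a_at the Oprl1 differences were 0.14 and 0.04, neither of them called. With the index as a covariate Pnoc gave -0.10 and Oprl1 1369646_at -0.0089, neither of them called.

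Among the other receptors of this pair, Oprk1, the dynorphin receptor, ran from 8.37 over 8.62 to 9.09 in sP and from 8.63 over 8.99 to 9.67 in sNP on its brightest probe set, 1368197_at. The difference was -0.33 ± 0.123 (limma adjusted p = 0.0801), and 5 of 9 sP animals lay below the lowest sNP animal. Its other 2 probe sets gave -0.06 and -0.17, neither of them called. Oprm1, the mu receptor, gave 0.02 and 0.04 on its 2 probe sets, with 95% intervals of -0.08 to 0.12 and -0.11 to 0.18. Oprd1, the delta receptor, gave 0.07 (-0.09 to 0.23) and Pomc -0.07 (-0.26 to 0.12). For these 3 genes the intervals leave out signal differences as large as those of Penk and Pdyn. Their probe sets, however, lay below the median signal of every array, whereas Penk lay far above it. Whether signals this low follow the amount of transcript was not tested, so the intervals set no limit on a change in transcript. A difference that misses the threshold also does not show that the lines are alike.

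In P/NP none of the 14 probe sets was called (0 also at an unadjusted p under 0.05, limma), where 1.05% of all probe sets were called and 7.63% had an unadjusted p under 0.05. For Pdyn and Pnoc the pair is set apart by its spread and not by its difference. Pdyn 1383294_at ran from 10.001 over a median of 13.42 to 14.16 in P and from 12.28 over 13.46 to 14.12 in NP. Pnoc ran from 6.66 over 7.89 to 10.91 in P and from 6.51 over 8.06 to 8.76 in NP. Both lines thus held animals with high and with low peptide signal, and they overlapped over nearly their whole range. The differences were -0.19 ± 0.428 for Pdyn (95% interval -1.08 to 0.70) and 0.22 ± 0.448 for Pnoc (-0.72 to 1.15), intervals wide enough to hold the sP/sNP difference of either gene. Penk ran from 13.13 over 14.32 to 14.71 in P and from 13.42 over 14.30 to 14.71 in NP, with a difference of 0.08 ± 0.226.

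The pooled within-line SD of Pdyn 1383294_at was 1.02 in P/NP, 0.102 in HAD1/LAD1, 0.206 in HAD2/LAD2, 0.386 in AA/ANA and 0.536 in sP/sNP. For Pnoc it was 1.07, 0.204, 0.279, 0.538 and 0.452 in the same order of pairs. The median SD over all probe sets was 0.167, 0.146, 0.155, 0.168 and 0.144. Over all probe sets the 90th percentile of this SD was also highest in P/NP, at 0.394, against 0.271 in HAD1/LAD1 and 0.283 in sP/sNP. Pdyn 1383294_at and Pnoc lay beyond the percentile of the pair in P/NP, sP/sNP and AA/ANA (0.322). They lay below it in HAD1/LAD1 and HAD2/LAD2 (0.286). Penk lay beyond it in P/NP (0.537) and equally in sP/sNP (0.535). It lay below it in HAD1/LAD1 (0.132), HAD2/LAD2 (0.182) and AA/ANA (0.312). Pomc had 0.114 in P/NP and its highest SD in AA/ANA (0.316). The extreme Pdyn value belongs to P animal 5 (10.001, with the lowest index of all arrays, -0.46) and the extreme Pnoc value to P animal 9 (10.91, index 0.918), an array that departs from its label.

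In HAD1/LAD1 again none of the 14 was called (0 at an unadjusted p under 0.05, limma), against 1.2% of all probe sets called and 9.89% below that unadjusted p. Penk ran from 13.80 over 14.10 to 14.27 in HAD1 and from 13.83 over 14.14 to 14.24 in LAD1. Pdyn 1383294_at ran from 13.10 over 13.41 to 13.51 in HAD1 and from 13.32 over 13.44 to 13.52 in LAD1. With these small spreads the intervals were narrow, at -0.15 to 0.10 for Penk and -0.14 to 0.07 for Pdyn. Neither interval holds the differences found in sP/sNP.

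In HAD2/LAD2 none was called by limma, against 4.6% of all probe sets, and 1 probe set had an unadjusted p under 0.05, against 14% of all. That probe set belongs to Oprk1 (1368197_at), with 10.27, 10.73 and 10.98 as the lowest, median and highest value in HAD2, against 9.64, 10.24 and 10.76 in LAD2. The lines overlapped, but 4 of 10 HAD2 animals lay above the highest LAD2 animal. The difference was 0.39 ± 0.130 (95% interval 0.12 to 0.66, limma adjusted p = 0.105), opposite in sign to that in sP/sNP. Without LAD2 animal 11 the probe set was called (adjusted p = 0.0458), and it was not called in the other 19 fits that each left out 1 animal. The other 2 Oprk1 probe sets gave 0.05 and 0.16. Penk and Pdyn 1383294_at gave -0.02 ± 0.0787 and 0.06 ± 0.0879.

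In AA/ANA none was called by limma (0 at an unadjusted p under 0.05), against 2.35% of all probe sets called and 9.74% below that unadjusted p. Oprl1 1369645_at had the lowest unadjusted p, with 6.35, 6.63 and 6.79 as the lowest, median and highest value in AA, against 6.13, 6.82 and 7.26 in ANA. The difference was -0.19 ± 0.0994 (limma adjusted p = 0.612), and the lines overlapped. Pnoc gave 0.22 ± 0.222, between 7.28 and 8.96 in AA and between 6.85 and 8.35 in ANA. With the marker index as a covariate it was 0.29 with a limma adjusted p of 0.0430, the only call that this covariate added among the 14 probe sets in any pair.

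**Figure D3:**
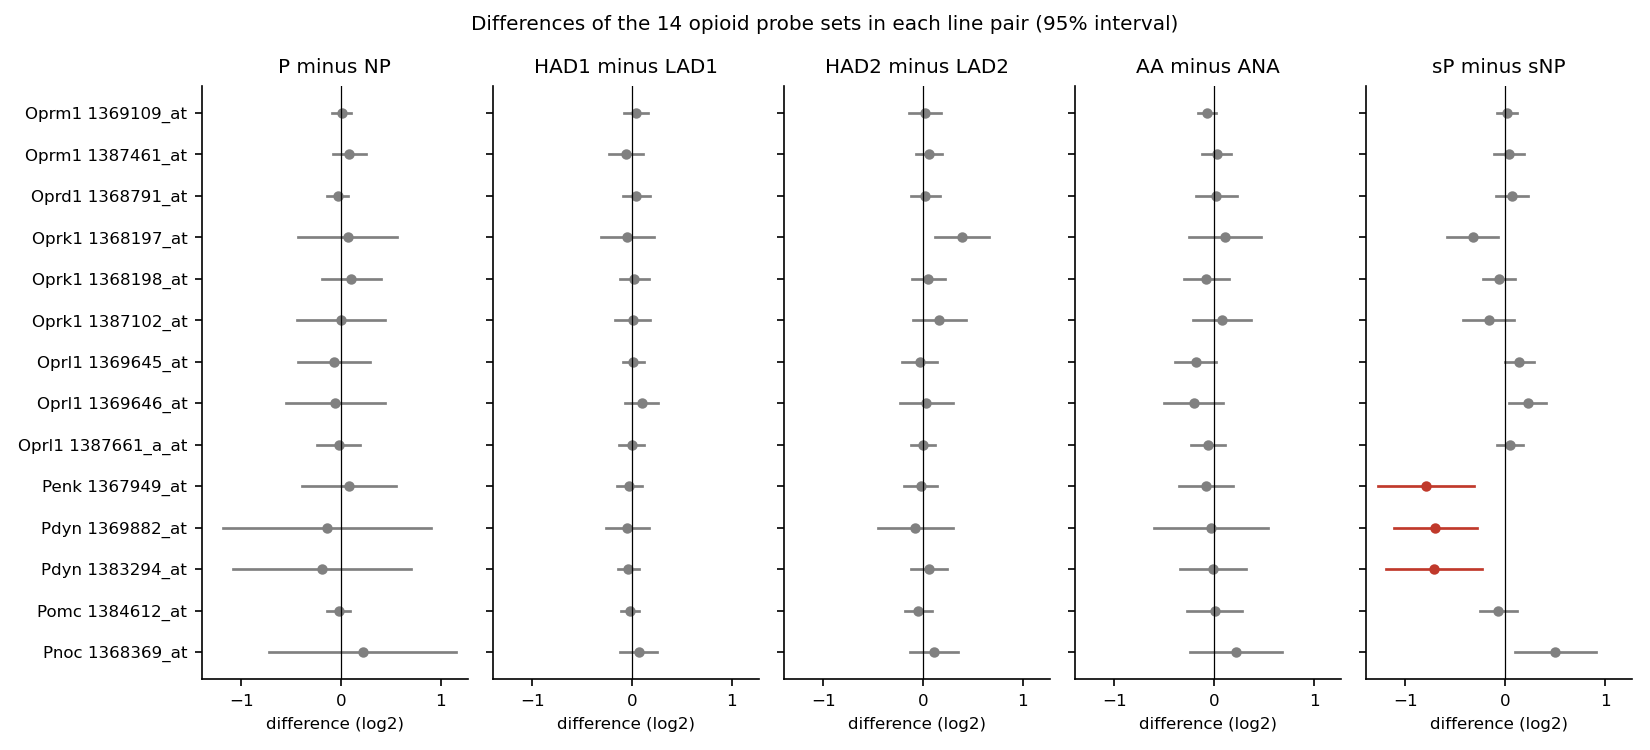
Differences (log2, preferring minus non-preferring) of all 14 opioid probe sets in each line pair with 95% intervals; red marks an adjusted p under 0.05. The 3 red points are Penk and both Pdyn probe sets in sP minus sNP, between -0.79 and -0.70, and the widest intervals are those of Pdyn and Pnoc in P minus NP.

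Set side by side, the Penk differences were 0.08 in P/NP, -0.03 in HAD1/LAD1, -0.02 in HAD2/LAD2, -0.09 in AA/ANA and -0.79 in sP/sNP. A test of whether the 5 differences are equal called Penk alone of the 14 probe sets (moderated F = 4.14, limma adjusted p = 0.0374), where it called 11.7% of all probe sets. This call was not made in 10 of 97 fits that each left out 1 animal, namely those without sP 2, 5, 8 or 9 or without sNP 1, 2, 3, 5, 6 or 9, where the adjusted p lay between 0.0518 and 0.137. With the index as a covariate, fitted with 1 slope over all lines, the adjusted p was 0.0180. Fits of each pair, with a slope of their own, gave Penk differences of 0.15 in P/NP, 0.02 in HAD1/LAD1 and -0.08 in HAD2/LAD2. They gave -0.12 in AA/ANA and -0.07 in sP/sNP, so that sP/sNP lay within the range of the other pairs. These are not the differences that the test with 1 slope compared, so they do not show what that test called. For the other 13 probe sets unequal differences were not called.

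Averaged over the 5 pairs, none of the 14 probe sets was called by limma, against 3.37% of all probe sets, and 1 had an unadjusted p under 0.05, against 14.1% of all. That 1 was Penk, with an average of -0.17 ± 0.0754 (unadjusted p = 0.0264, adjusted p = 0.262), which the sP/sNP pair carries. With the 5 line differences as the replicates, limma called none of the 14 and none of all probe sets (0% called), and 1 of the 14 had an unadjusted p under 0.05, against 3.91% of all.

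That probe set was Pnoc, which was higher in the preferring line in 5 of 5 pairs. Its differences were 0.22 in P/NP, 0.07 in HAD1/LAD1, 0.11 in HAD2/LAD2, 0.22 in AA/ANA and 0.50 in sP/sNP. The average of 0.22 had an error of 0.0650 with line differences as replicates (unadjusted p = 0.0139, adjusted p = 0.948) and of 0.119 with animals as replicates (adjusted p = 0.400). Pnoc therefore failed the correction by either route. The 5 of 5 also did not hold in other fits. The P/NP difference was -0.06 without the 2 departing arrays P 9 and NP 9 and -0.32 with array weights. With the index as a covariate, it was -0.02 in HAD1/LAD1 and -0.10 in sP/sNP. In AA/ANA it was 0.12 without AA 19 and ANA 20 and 0.03 with array weights. Pdyn 1369882_at was lower in the preferring line in 5 of 5 pairs, by -0.14, -0.05, -0.08, -0.03 and -0.70 in the same order of pairs (average -0.20, adjusted p = 0.554). With array weights it was higher in P (0.41) and in AA (0.03), and with the index as a covariate in P (0.03). Pdyn 1383294_at, the other probe set, was higher by 0.06 in HAD2 and lower in the other 4 preferring lines.

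Across all arrays, Penk, Pdyn, Pnoc, Oprk1 and Oprl1 followed the spiny neuron index within lines. Oprk1 and Oprl1 did so less closely on some of their probe sets. The relation was computed on deviations from the line mean over 97 arrays, for 84 relations in all (14 probe sets, over all pairs and in each pair), with permutations of animals within lines. Pdyn 1383294_at followed the index with r = 0.922 and rho = 0.916 (permutation p = 1e-05 each, the smallest that these permutations can give; adjusted p = 3.23e-05 and 4.2e-05). Without the 2 arrays farthest from the median index r was 0.942, and the slope was 0.48 log2 units of signal per index unit. Penk had r = 0.885 and rho = 0.890, with the same p values as Pdyn and r = 0.899 without the 2 farthest arrays. Pdyn 1369882_at had r = 0.857 and rho = 0.751 (0.834 without the 2 farthest). The higher the index of an animal relative to its line, the higher its enkephalin and dynorphin precursor signals tended to be.

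Pnoc and Oprl1 1369646_at ran the other way. Pnoc had r = -0.876 and rho = -0.885 (permutation p = 1e-05 each, adjusted p = 3.23e-05 and 4.2e-05), and r = -0.917 without the 2 farthest arrays. Oprl1 1369646_at had r = -0.860 and rho = -0.842 with the same p values, and -0.837 without the 2 farthest. Pnoc and this Oprl1 probe set were thus higher in arrays whose index was lower relative to their line. The index also falls where the markers of pallidum, septum and basal forebrain are higher. Oprk1 1368197_at rose with the index, at r = 0.768 and rho = 0.720 (permutation p = 1e-05 each), and r = 0.749 without the 2 farthest arrays. The other Oprk1 probe sets gave r = 0.76 for 1387102_at and 0.541 for 1368198_at. The other Oprl1 probe sets fell less closely with the index, at r = -0.585 for 1369645_at and -0.439 for 1387661_a_at (adjusted permutation p = 0.000156 and 0.000709). Within single pairs, these 2 Oprl1 probe sets passed the adjustment in P/NP alone (r = -0.881 and -0.692).

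The mu receptor did not follow the index over all pairs. Its probe sets gave r = 0.00202 (rho = 0.0388, permutation p = 0.983 and 0.716) and r = -0.0472 (rho = 0.0166, permutation p = 0.688 and 0.881), with adjusted p of 0.998 and 0.781 for r. Within HAD2/LAD2, however, 1387461_at gave r = 0.558 (rho = 0.540, permutation p = 0.0135 and 0.0180, adjusted p = 0.0227 and 0.0302). The delta receptor gave 0.276 (rho = 0.287, permutation p = 0.00299 and 0.00414) and Pomc 0.350 (rho = 0.438, permutation p = 3e-04 and 4e-05) over all pairs.

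The relations held in some pairs more than in others. For Pdyn 1383294_at r was 0.940 in P/NP, 0.589 in HAD1/LAD1, 0.950 in HAD2/LAD2 and 0.934 in AA/ANA, with adjusted permutation p of 3.23e-05 in P/NP, HAD2/LAD2 and AA/ANA and 0.0141 in HAD1/LAD1. For Pnoc r was -0.877, -0.589, -0.822 and -0.946 in the same pairs. For Penk it was 0.931, 0.488, 0.945 and 0.902, and the value in HAD1/LAD1 did not pass the adjustment (adjusted p = 0.0634). The pair with the narrowest range of the index, HAD1/LAD1, gave the lowest r for all 3 genes among these 4 pairs. The sP arrays fall into 2 separate sets on the index, each under 6 arrays, so no r is given for them. Within the 9 sNP arrays, over 6 relations, Pnoc had r = -0.913 (exact permutation p = 0.000389, adjusted p = 0.00233), Penk 0.834 (exact p = 0.00507, adjusted p = 0.0131) and Pdyn 1383294_at 0.826 (exact p = 0.00656, adjusted p = 0.0131). Their rho was -0.950, 0.767 and 0.700, with exact adjusted p of 0.00212, 0.0642 and 0.0866. Without the 2 farthest arrays r was -0.916, 0.834 and 0.819. The other relations within sNP did not pass. Their r was 0.541 for Pdyn 1369882_at, 0.518 for Oprk1 1368197_at and -0.554 for Oprl1 1369646_at (exact permutation adjusted p = 0.155 each). Without the 2 farthest arrays this Oprl1 probe set had r = -0.0621.

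**Figure D4:**
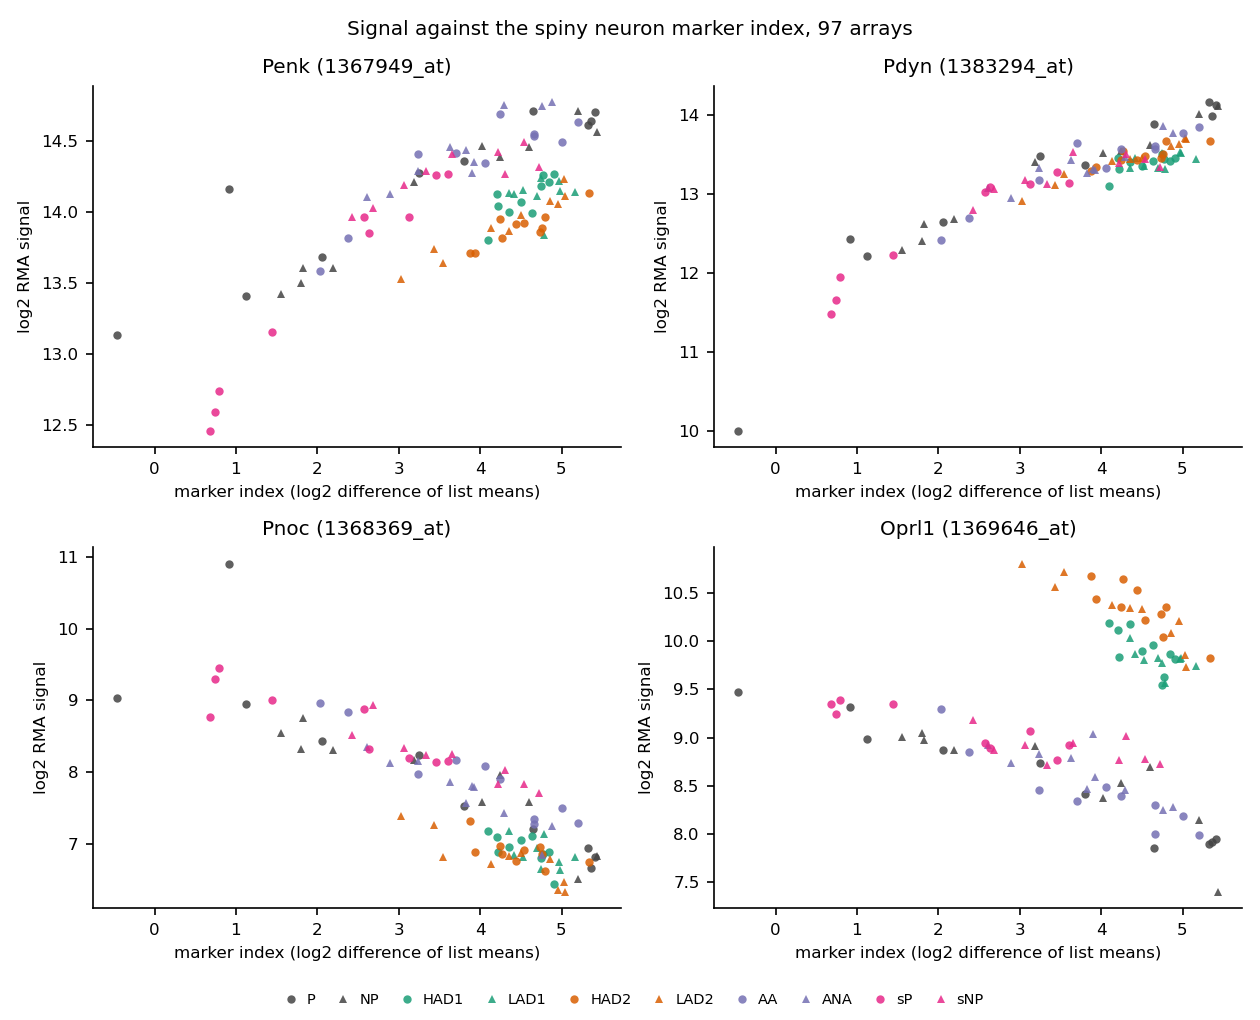
Log2 RMA signal of Penk, Pdyn, Pnoc and Oprl1 (y axis) against the marker index of each array (x axis, mean of spiny neuron markers minus mean of pallidum, septum and basal forebrain markers, log2); circles are preferring and triangles non-preferring lines, 1 colour per pair. Penk and Pdyn rise and Pnoc and Oprl1 fall along the index, with the 4 sP arrays of index 0.681 to 1.44 and P animal 5 at the low end, and the HAD lines lie on a separate band for Oprl1.

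As a description over the same 97 deviations, the members also varied with each other. The 2 Pdyn probe sets had r = 0.89, and Penk and Pdyn 1383294_at had r = 0.89. Pnoc and Pdyn 1383294_at had r = -0.74, and Pnoc and Oprl1 1369646_at had r = 0.81. On the other Oprl1 probe sets r with Pnoc was lower, at 0.52 for 1369645_at and 0.32 for 1387661_a_at. Pdyn 1383294_at and Oprk1 1368197_at had r = 0.71. The 2 Oprm1 probe sets did not vary together (r = 0.03), so that variation between animals in 1 of them was not seen in the other. The 3 Oprk1 probe sets had r of 0.83, 0.58 and 0.55 between them. All these points share their arrays. The probe sets of Penk, Pdyn and Pnoc, Oprk1 1368197_at and Oprl1 1369646_at also share the relation to the index.

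For each member the 3 genes with the most similar deviations were taken among 20812 probe sets with 1 symbol. Pdyn was most like Ppp1r1b, which codes for DARPP-32 of spiny neurons (r = 0.976 over 97 arrays), Camkv (0.970) and Rab40b (0.969). Ppp1r1b is itself 1 of the markers in the index. Penk was most like Ppp3ca, a catalytic subunit of calcineurin (0.944), Ano3 (0.940) and Rbfox1, a neuronal splicing factor (0.940). Pnoc was most like Tmem132c (0.893), Cd83 (0.890) and Cdk18 (0.888), and Oprl1 was most like Prrg3 (0.911), Arl10 (0.904) and also Cd83 (0.898). Oprk1 was most like Mettl9 (0.907), Deptor, an inhibitor of mTOR signalling (0.881), and Zswim6 (0.872). The likeness was looser for Oprd1 (Ttc39c, Bmp6 and Kcnq5, each 0.721), Oprm1 (Arid1b 0.623, Clrn3 0.622 and Jam2 0.611) and Pomc (Kat6b 0.765, Dipk1b 0.745 and Tsc22d1 0.735). For Pomc the values rested on the departing arrays, without which Kat6b gave 0.489.

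Levels were then compared across the 10 lines. Line pairs also differed in the Gapdh 3′ minus 5′ measure, which averaged 4.80 in HAD1/LAD1 and 2.87 in HAD2/LAD2 and between 0.0901 and 0.435 in the other 3 pairs. HAD1/LAD1 and HAD2/LAD2 each had a range of this measure apart from every other pair. P/NP and AA/ANA overlapped in it, and AA/ANA reached the range of sP/sNP only in the departing arrays AA 19 and ANA 20. A level that sets HAD1/LAD1, HAD2/LAD2 or sP/sNP apart therefore cannot be told apart from this measure here. Between P/NP and AA/ANA the part of the measure was not tested.

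Penk lay highest in ANA (14.43 ± 0.252, SD, n = 10) and lowest in sP (13.47 ± 0.735, n = 9), in the order ANA, AA, sNP, P, LAD1, HAD1, NP, LAD2, HAD2 and sP. No neighbours in this order differed by more than the larger of their SDs. Pdyn 1383294_at lay highest in HAD2 (13.48 ± 0.123, n = 10) and lowest in sP (12.55 ± 0.719, n = 9), and again no neighbours in its order (HAD2, LAD2, LAD1, HAD1, ANA, AA, sNP, NP, P, sP) differed by more than their SD. The second Pdyn probe set ordered the lines differently, with ANA (8.58) on top and HAD2 (6.53) at the bottom, and with sNP above LAD1 by more than the larger SD. So HAD2 was highest on 1 Pdyn probe set and lowest on the other.

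Pnoc lay highest in sP (8.69 ± 0.507, n = 9), sNP, P, AA, NP and ANA, and lowest in HAD1, HAD2, LAD1 and LAD2 (6.79 ± 0.348, n = 10). The step between ANA (7.72) and HAD1 (6.93) was the only 1 larger than the SD. Pnoc was therefore low in all 4 HAD and LAD lines, which are also the lines with the highest spiny neuron index (means between 4.29 and 4.74). They also have the highest Gapdh 3′ minus 5′ measure (4.80 in HAD1/LAD1 and 2.87 in HAD2/LAD2). The part of the index or of this measure in the Pnoc level was not tested.

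Pomc, the beta-endorphin precursor, lay between 6.52 and 6.84 in the 8 lines other than sP (5.99 ± 0.174, n = 9) and sNP (6.07 ± 0.222, n = 9). The order was NP, P, LAD2, HAD2, AA, ANA, LAD1, HAD1, sNP and sP, and only the step between HAD1 and sNP exceeded the larger SD. No detection call was used, so a low signal is not read as absence or as presence of the transcript. In AA and ANA, 1 animal each stood far below its line, AA 19 at 5.86 (next lowest 6.58) and ANA 20 at 5.92 (next lowest 6.62). Both values lie within the range of sP (5.81 to 6.26), and both arrays depart from their label and were closest to arrays of the sP/sNP pair. Oprd1 showed the same, with AA 19 at 5.21 and ANA 20 at 5.17, within the sP range of 4.75 to 5.41. The Gapdh measure of these 2 arrays was 0.541 and 0.397, within the sP/sNP range of 0.312 to 0.800 too.

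Oprk1 1368197_at lay highest in LAD1 (10.99 ± 0.378, n = 9) and HAD1 (10.94), then in HAD2 (10.66), LAD2 (10.27), P (9.61), NP (9.55), AA (9.35), ANA (9.24), sNP (9.02) and sP (8.69 ± 0.228, n = 9). The steps from HAD1 to HAD2, from HAD2 to LAD2 and from sNP to sP exceeded the larger SD. Oprk1 1387102_at ordered the lines nearly the same way, between 8.24 and 6.42. The 4 HAD and LAD lines had the highest means on both of these probe sets. The step from LAD2 to P exceeded the larger SD on 1387102_at but not on 1368197_at, where the animals of these lines overlapped (9.64 to 10.76 in LAD2 and 8.84 to 10.54 in P). On 1368198_at the 10 means lay between 6.46 and 5.68, with no step beyond the larger SD.

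Oprl1 gave opposite orders on different probe sets. On 1369646_at it was highest in HAD2 (10.34), LAD2, HAD1 and LAD1 (9.81) and lay between 9.10 and 8.43 in the other 6 lines. On 1369645_at it was lowest in these same lines, between 5.88 and 5.09, and lay between 6.79 and 5.99 in the others. The probe sets therefore disagree on which lines carry more of the nociceptin receptor transcript, and no order of its level is drawn. Within lines the 2 probe sets had r = 0.54.

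Oprm1 differed little between lines, between 6.33 (AA) and 5.83 (HAD1) on 1387461_at and between 5.02 (HAD2) and 4.53 (NP) on 1369109_at. Its probe sets also put different lines on top. Oprd1 lay between 5.98 (HAD2) and 5.72 (ANA) in 8 lines and at 5.19 ± 0.189 in sP and 5.13 ± 0.142 in sNP (SD, n = 9 each). The step between ANA and sP was the only 1 beyond the larger SD.

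**Figure D5:**
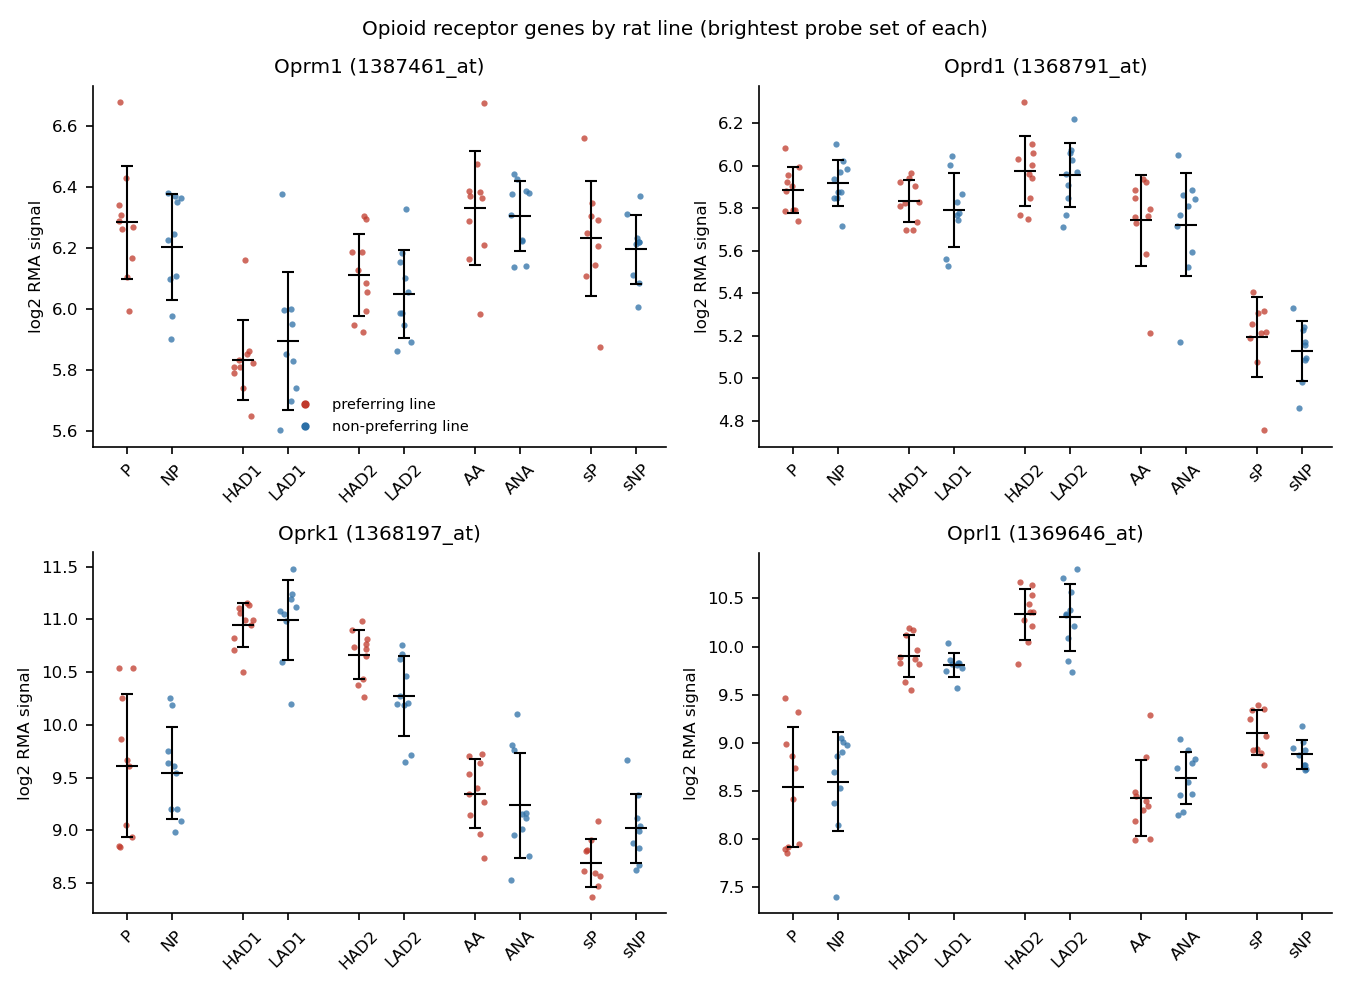
Log2 RMA signal of the 4 opioid receptor genes (brightest probe set of each) in every animal, by line, with each preferring line left of its non-preferring line; bars give the mean and 1 SD. No receptor probe set was called in any pair, and the levels differ between pairs. On the probe sets shown, Oprk1 and Oprl1 had their highest means in the HAD and LAD lines (Oprl1 1369645_at, which is not shown, had its lowest there), and Oprd1 had its lowest in sP and sNP.

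The genes around the opioid system were taken from 6 lists, for peptide maturation, peptide breakdown, G proteins and effectors of the receptors, receptor regulation, transcription of Pdyn and Penk, and opioid-named proteins that are not classical receptors. Of 70 listed genes 63 were measured, with the brightest probe set of each. In sP/sNP 6 were called higher and 6 lower (19%, against 12.9% of all probe sets), with a median difference of -0.0013. In HAD2/LAD2 2 were called higher and 0 lower (3.17%, against 4.6% of all), and in AA/ANA 1 higher and 1 lower (3.17%, against 2.35% of all). In P/NP and HAD1/LAD1 none was called, against 1.05% and 1.2% of all. These shares lie near those over all probe sets. The genes named next are those called on any of their probe sets, so some were not called on their brightest one and are not in these counts.

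In sP/sNP 1 of 8 measured peptide maturation genes was called lower, and 2 of 8 measured peptide breakdown genes were called higher. Pam, which amidates peptides during maturation, was lower in sP, with 11.58 in sP and 11.85 in sNP on average (difference -0.27, limma adjusted p = 0.0240, 1 of 3 probe sets called). Ece1 and Ece2, endothelin-converting enzymes that also cut other peptides, were higher in sP by 0.30 (adjusted p = 0.0129) and 0.29 (adjusted p = 0.0319). Ackr3, an atypical receptor that binds opioid peptides without G protein signalling, was higher by 0.28 (adjusted p = 0.0157), and Grk6, a kinase of activated receptors, by 0.26 (adjusted p = 0.0255). Gnb5, a G protein beta subunit that pairs with RGS9, was lower (difference -0.28, adjusted p = 0.0302). In this pair 13 of 17 measured spiny neuron markers were also called lower in sP. With the marker index as a covariate, 315 of all probe sets were called in place of 4006. The part of the markers in the calls of these genes was not tested.

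In HAD2/LAD2, Kcnip3, which codes for DREAM, a repressor of Pdyn transcription, was higher in HAD2, at 10.99 in HAD2 and 10.55 in LAD2 (difference 0.44, limma adjusted p = 0.000189), on 1 of its 2 probe sets. Crem, a cyclic AMP-responsive factor, was lower (difference -0.54, adjusted p = 0.000512), on 1 of 6 probe sets. Opcml, an opioid-binding cell adhesion protein, was higher by 0.34 (adjusted p = 0.0184) on 1 of 2. Pdyn itself was not called in this pair. Markers of other cells moved in HAD2/LAD2 as well. Of 8 measured oligodendrocyte markers 5 were called lower in HAD2, with a mean per array between 11.41 and 11.79 in HAD2 and between 11.68 and 12.32 in LAD2. Of 7 endothelial markers 3 were called lower, of 4 cholinergic markers 1, and of 9 microglia markers 2 lower and 1 higher. The part of these markers in the calls of this pair was not tested. In AA/ANA, Creb1 was lower in AA on 1 of 4 probe sets, with 8.10 in AA and 8.89 in ANA (difference -0.79, limma adjusted p = 0.000166). Enpep, an aminopeptidase, was higher by 0.67 on 1 of 2 (adjusted p = 0.000204), and Gnb1, a G protein beta subunit, by 0.56 on 1 of 3 (adjusted p = 0.000220). Since most of these calls rest on 1 of several probe sets, they describe that probe set and not the whole gene.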

How the data were processed

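Per the labels, total RNA of the nucleus accumbens shell was extracted with Trizol and RNeasy and labelled by the Affymetrix 2-cycle protocol, with 1 array per animal. The deposited values are log2 signals made by the authors with RMA, per the submitters' processing notes (version not given in the sources used here). They ran from 3.56 to 16.06 over 31099 probe sets, with array medians from 7.82 to 8.02, and were used as deposited. The labels give no genome build, and no probe positions are printed. The 57 control probe sets were left out.

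Line and animal number were taken from the labels. Each pair was fitted alone with limma 3.58.1 in R 4.3.3 (lmFit, eBayes, two-sided), with Benjamini-Hochberg adjustment over 31042 probe sets; fits over all lines gave the average and the test of equal differences, and the 5 line differences were also tested as replicates. The number of arrays limits the precision, and p-values measure the spread between animals of the lines compared. Where the 5 line differences were the replicates, they measure the spread between those differences. The members, gene lists, marker index and rules were chosen with earlier results of these data known. All member probe sets are described; of the other opioid system genes, those called in a pair are named, up to 6 a pair by adjusted p, with their brightest called probe set. The limit of 0.3 for departing arrays was set after the data were seen. Permutations of animals within lines (100000) gave the p of correlations. Equal animal numbers in P/NP and sP/sNP were not taken as pairs, since only some same-numbered animals deviated together (correlations from -0.591 to 0.774 and from -0.220 to 0.560). The fits were tested on simulated data with independent noise for each probe set. Probe sets of the real arrays vary together, so the simulation does not show how the calls behave under such variation. Promoter sequence is RefSeq's (GRCr8). Other settings tried were no departing arrays, index or Gapdh covariates, quantile normalization, a filter at a mean of 6, trend and robust eBayes, array weights, 1 fit of all lines, a replicate block and each animal left out.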

Additional observations from a re-analysis of the deposited data

Results flagged for a closer look

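In 12 of 140 combinations of a probe set and a line, 1 animal lay far from the others by Dixon's test, where chance alone gives about 1 in 20. Lowest in their line were Pdyn 1383294_at in P 5 (10.001, next 12.21) and HAD1 27 (13.10), Penk in LAD1 33 (13.83, next 14.11), Pnoc in HAD1 22 (6.44), Oprl1 1369645_at in ANA 20 (6.13), and Oprl1 1387661_a_at in HAD1 25 (4.99). The array AA 19 was lowest for Oprd1 (5.21) and for Pomc (5.86), and ANA 20 for Pomc (5.92); both arrays depart from their label. Highest in their line were Oprm1 1369109_at in HAD2 6 (5.32), Oprm1 1387461_at in HAD1 26 (6.16) and Pnoc in HAD2 1 (7.32).

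The Penk difference was unequal between the 5 line pairs (limma adjusted p = 0.0374), with -0.79 in sP/sNP and between -0.09 and 0.08 in the other 4 pairs.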

How the results depend on the processing

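The 3 calls in sP/sNP were the result most open to other settings. The count was 0 with the marker index as a covariate, alone or without sP 4 and sNP 4 (a combination chosen after seeing the data), 0 with the Gapdh measure as a covariate and 1 in a fit of all 10 lines (Penk, with adjusted p of 0.147 and 0.0585 for the 2 Pdyn probe sets). Pdyn 1383294_at changed sign with the index, to 0.0090 and, without sP 4 and sNP 4, to 0.025. The cause was not tested. In AA/ANA the count was 1 with the index, and 1 with the index and without AA 19 and ANA 20 (Pnoc). For unequal differences it was 0 after quantile normalization (Penk adjusted p = 0.0639) and 4 with array weights (Penk, Pdyn 1383294_at, Oprl1 1369645_at and 1369646_at; 8524 of all probe sets). Leaving out each animal gave 0 to 6 calls in sP/sNP (1031 to 5821 over all probe sets), 0 to 1 in HAD2/LAD2 and 0 to 1 for unequal differences. With the animal number as a replicate block, 3 probe sets were called in sP/sNP, but the adjusted p was 0.0507 and 0.0547 for the Pdyn probe sets and 0.0357 and 0.0418 for Oprl1 1369646_at and Pnoc; in P/NP 0 were called. In the trend and robust fit Pdyn 1383294_at had an adjusted p of 0.0518. The counts in P/NP, HAD1/LAD1, on average and with line pairs as replicates stayed at 0 in every setting run. Fits of line pairs as replicates were not run with covariates or array weights.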
